A study of Rattus norvegicus with 4 samples.

Results

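The genes described here encode the phase II conjugation enzymes of the rat macrophage line NR8383 after exposure to carbon nanotubes. They are the glutathione transferases of the cytosol and mitochondria (Gst), the microsomal glutathione transferases (Mgst), the UDP-glucuronosyltransferases and their relatives (Ugt) and the sulphotransferases (Sult). Members were chosen by name alone: a probe belonged if the RefSeq accession given for it in the array file mapped to a rat symbol starting with Gst and one of the class letters a, k, m, o, p, t or z, with Mgst, with Ugt or with Sult, each followed by a number. This gave 54 genes of 16581 named genes, read by 76 of 21109 named probes: 24 Gst genes, 3 Mgst genes, 14 Ugt genes and 13 Sult genes.

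The data are one-colour Agilent expression arrays of total RNA from 4 samples, described as 4 biological replicates. All came from NR8383, a line established by lung lavage of a normal rat, which grows partly adherent and partly floating and had passed 20 passages. The cells were cultured for 48 h and then exposed for 4 h to NRCWE049, which are NH2-functionalized carbon nanotubes, at a dose of 1.2 cm²/cm². Unexposed control arrays were not analysed here, so the values describe exposed cells only, and no effect of the nanotubes can be read from them. NR8383 is 1 cell line, so the p-values below measure only the spread between these 4 samples.

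Phase II enzymes attach a water-soluble group to a reactive or fat-soluble molecule, which can then leave the cell through an export pump. Glutathione transferases attach the tripeptide glutathione, UDP-glucuronosyltransferases attach glucuronic acid taken from UDP-glucuronate, and sulphotransferases attach sulphate taken from the donor PAPS. Liver is the best known site of all 3 reactions. Macrophages meet oxidants and lipid peroxides during phagocytosis, and glutathione transferases are part of their defence. Many Gst genes are targets of NRF2, a transcription factor that is released from its inhibitor KEAP1 under oxidative stress.

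Of the 54 members, 17 (31.5%) were well above background on all 4 arrays, against 8713 of 16581 named genes (52.5%). A further 3 members were well above background on 1 or 2 arrays, and 34 on none. Detection differed by family: 3 of 3 Mgst genes were detected, 9 of 24 Gst genes (37.5%), 3 of 13 Sult genes (23.1%) and 2 of 14 Ugt genes (14.3%). The detected Gst genes were Gsta1, Gsta4, Gsta5, Gstm4, Gsto1, Gstp1, Gstp3, Gstt2 and Gstz1, and the other detected genes were Mgst1, Mgst2, Mgst3, Ugt1a6, Ugt2a1, Sult1c2, Sult1c2a and Sult1c3. A gene counted as detected when at least 1 of its probes carried the scanner software's well-above-background flag, on most of its spots, on 4 of 4 arrays. The lowest signal that carried this flag was 16.7 to 20.1 intensity units, depending on the array. With Agilent's weaker flag for positive and significant signal, 20 members were detected (and 61.7% of all named genes). Detection does not tell apart a transcript present in every cell from one present in a few.

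**Figure D1:**
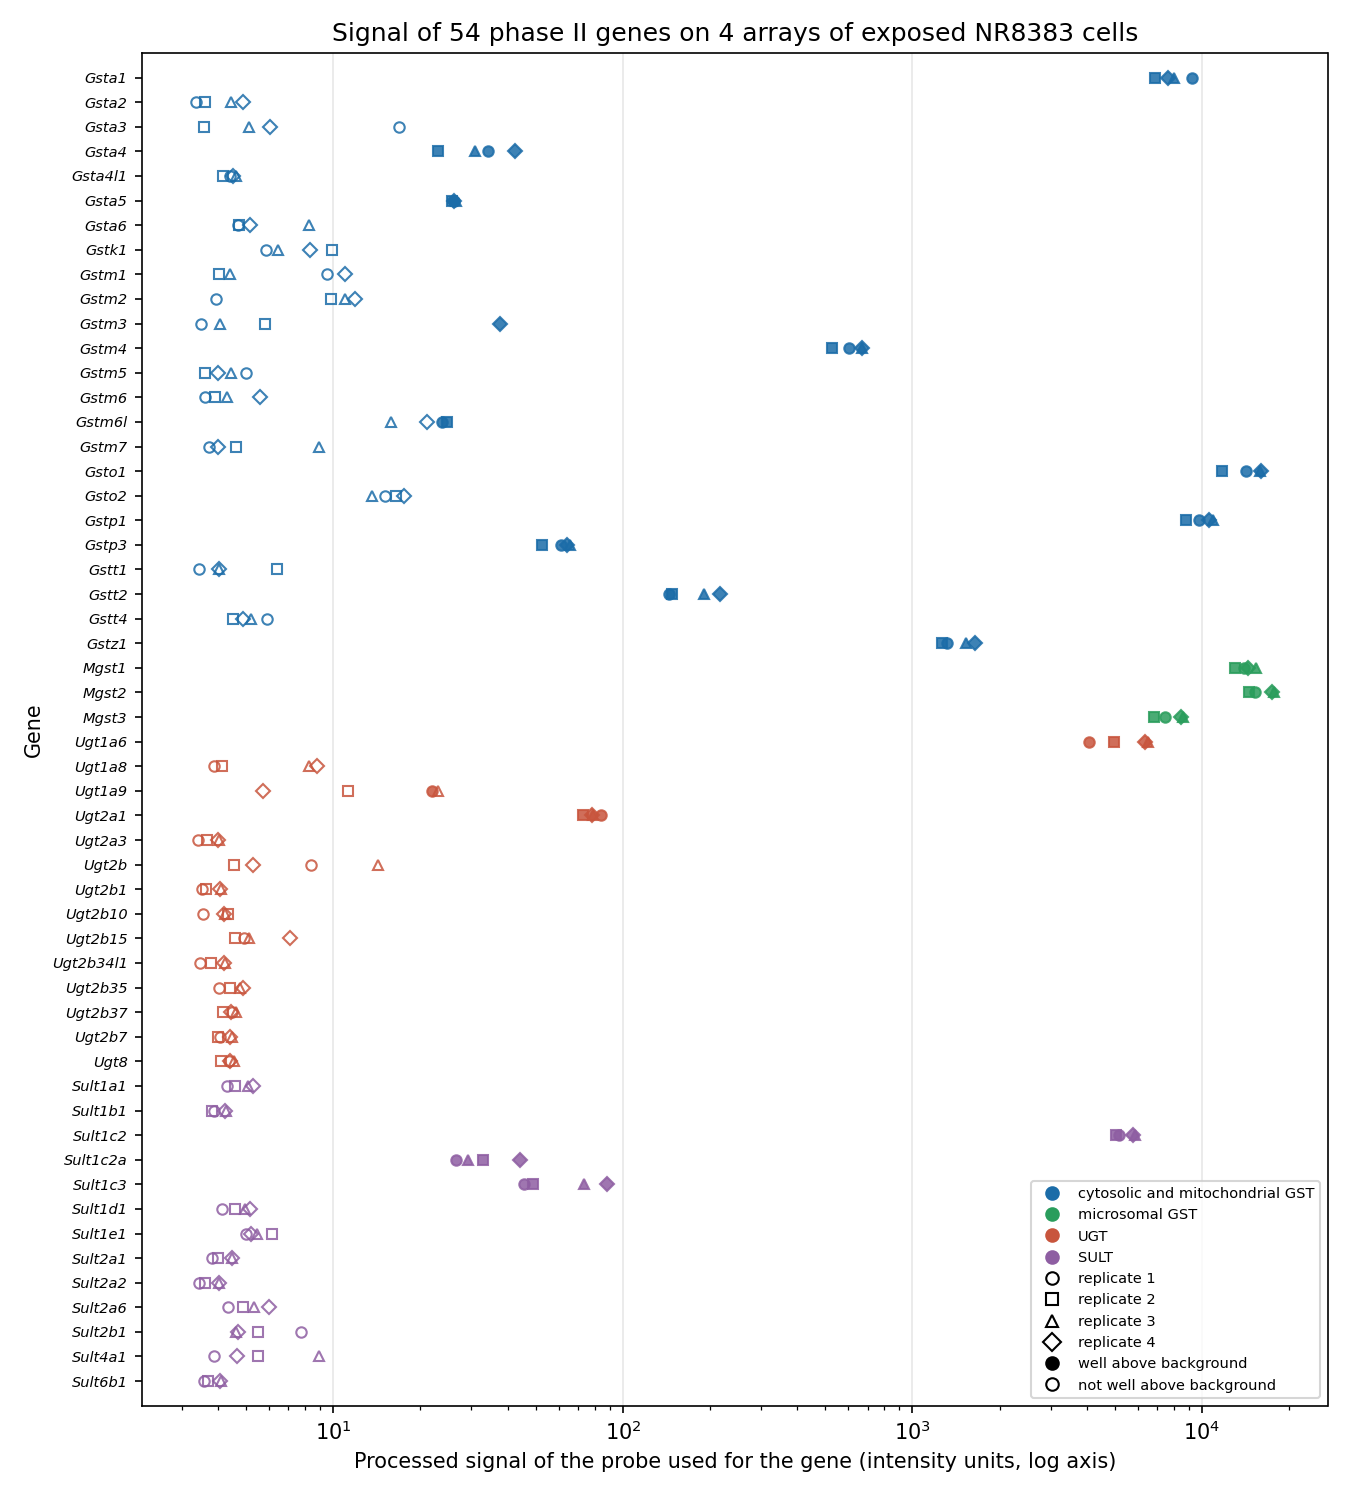
Processed signal (intensity units, log axis) of the probe that stands for each of the 54 members, one row per gene and one symbol per replicate. Filled symbols are well above background and hollow ones are not; rows are not to be ranked against each other, since probes differ in how well they bind. The detected members fall into bright genes such as Mgst2 (14490 to 17680) and dim ones such as Gsta5 (25.7 to 26.6), while the hollow rows lie mostly near 4.

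The level of a gene is given below as log2 of the processed signal minus the 75th percentile, on the same array, of the probes detected on all arrays, with the mean ± SD over n = 4 replicates. It follows 1 gene across the arrays; levels of different genes are not ranked, because probes bind differently. Among the 17 detected members, the mean signal was over 1000 intensity units for 9 and under 100 for 6. The bright members are Gsta1, Gsto1, Gstp1, Gstz1, Mgst1, Mgst2, Mgst3, Sult1c2 and Ugt1a6. The dim members, whose signals lay within a few-fold of the detection limit, are Gsta4, Gsta5, Gstp3, Ugt2a1, Sult1c2a and Sult1c3.

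Gstp1 encodes the pi class transferase, an abundant enzyme in many tissues and tumours. Its processed signal was 9774, 8828, 10890 and 10610 in replicates 1 to 4. Its level, at 2.31, was highest in replicate 1, with 2.16, 2.13 and 2.14 in the others (2.18 ± 0.09, SD, n = 4). The 3 lower values were close together. A second Gstp1 probe, also printed 10 times on each array, gave 1.81, 1.59, 1.60 and 1.67, again highest in replicate 1. Gstp3, the neighbouring gene of the same class, was near the detection limit, with signals of 61.0, 52.6, 65.5 and 64.4. Replicate 1 again lay above the rest (-5.01, against -5.23, -5.25 and -5.22), as in Gstp1. Probe sequences were not analysed here, so part of the Gstp3 signal could come from Gstp1 transcripts, and the 2 sources cannot be told apart.

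The sequences before the start of these neighbours are shown because they differ in a regulatory motif. The motif searched was TGACNNNGC, the core of the antioxidant response element that NRF2 binds with its Maf partners, on both strands of the 250 bases before each gene start in the RefSeq promoter table (assembly GRCr8). It was present before Gstp1, with its first base 61 bases before the start, and not before Gstp3. Among the detected members with an entry in the promoter table, the only other that carried it was Gstz1. There it lay on the opposite strand and 231 bases before the start. Gstt2, Mgst2 and Ugt2a1 had no entry and were not searched. Capitals mark the motif; where it lies on the opposite strand, its reverse complement is in capitals. The Gstp1 match also holds the AP-1 motif TGACTCA.
Gstp1, chr1:210769706-210769955, minus strand: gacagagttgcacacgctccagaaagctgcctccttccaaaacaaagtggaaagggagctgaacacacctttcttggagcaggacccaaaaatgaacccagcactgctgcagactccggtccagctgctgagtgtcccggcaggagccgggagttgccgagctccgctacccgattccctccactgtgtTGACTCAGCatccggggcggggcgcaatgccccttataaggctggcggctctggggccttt
Gstp3, chr1:210787685-210787934, minus strand: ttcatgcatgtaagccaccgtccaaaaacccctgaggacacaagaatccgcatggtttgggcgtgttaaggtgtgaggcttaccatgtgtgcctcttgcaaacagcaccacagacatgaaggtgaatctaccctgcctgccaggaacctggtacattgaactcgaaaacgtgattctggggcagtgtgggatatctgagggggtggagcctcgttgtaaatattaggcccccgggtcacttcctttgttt
Gstz1, chr6:112525356-112525605, plus strand: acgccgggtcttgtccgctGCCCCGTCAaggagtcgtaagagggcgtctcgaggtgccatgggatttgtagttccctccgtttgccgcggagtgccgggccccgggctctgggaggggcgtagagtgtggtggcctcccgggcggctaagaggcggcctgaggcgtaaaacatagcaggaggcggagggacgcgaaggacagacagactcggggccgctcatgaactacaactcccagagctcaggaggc

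The share of member promoters with the motif was close to that of all promoters. It was found before 2 of 14 detected members with an entry in the table (14.3%, Gstp1 and Gstz1) and before 3 of 34 members not detected (Gsta3, Gstm5 and Gstm7). Over all 51 member promoters the share was 9.8%, and over all 33469 promoters it was 10.1%. A match describes letters and not binding, and response elements farther from a start, or in enhancers, lie outside these windows.

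The alpha class transferases conjugate products of lipid peroxidation, and some of them reduce lipid hydroperoxides. Gsta1 was the bright member, with signals of 9233, 6911, 7993 and 7642. The levels of 2.23, 1.80, 1.68 and 1.67 (1.85 ± 0.26) put replicate 1 above the other three, and the highest array exceeded the lowest by 1.47-fold. A second Gsta1 probe deviated from its own mean by 0.19 in replicate 1, against 0.38 for the first, and both probes were highest there. Gsta4, whose enzyme favours the lipid aldehyde hydroxynonenal, had signals of 34.3, 23.1, 30.9 and 42.3 and a level of -6.11 ± 0.32. Replicates 1 and 4 were the higher pair for Gsta4. Gsta5 lay just above the limit of detection, with signals of 26.0, 25.7, 26.6 and 26.1 (-6.40 ± 0.17). The other alpha class genes, Gsta2, Gsta3, Gsta4l1 and Gsta6, were not detected on a single array. The RefSeq table lists overlapping older names for this class, and the gene listed here as Gsta1 has also been called Gsta3 and Gsta5.

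Of the mu class, only Gstm4 passed on all arrays. Its signal was 602, 526, 670 and 669 and its level -1.84 ± 0.09. Gstm3 was well above background in replicate 4 alone, at a signal of 37.6 against 3.50, 5.81 and 4.07 in replicates 1 to 3. The second Gstm3 probe was not detected on a single array, and was also highest in replicate 4 (13.0, against 3.74, 4.08 and 5.40). Gstm6l passed in replicates 1 and 2, with 23.8 and 24.7, and not in replicates 3 and 4, with 15.8 and 21.0. Both probes of Gstm1, the mu class gene most studied in liver, were not well above background, with signals of 4.03 to 12.8.

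The remaining Gst classes have 1 or few genes each. Gsto1 encodes the omega class enzyme, which reduces dehydroascorbate and mixed disulphides. Its signal was 14210, 11730, 15830 and 15980 and its level 2.70 ± 0.12, highest in replicate 1 (2.85) and lowest in replicate 2 (2.57). Its neighbour Gsto2 stayed just under the limit, with signals of 13.6 to 17.6, and was among the 3 members added by the weaker flag, with Gstk1 and Gstm6l. Gstz1 encodes the zeta class enzyme maleylacetoacetate isomerase of tyrosine breakdown and was steady over the arrays (-0.62 ± 0.07). Gstt2, of the theta class, was read by 3 detected probes. The brightest gave a level of -3.67 ± 0.14, with replicate 4 at -3.47 above -3.77, -3.75 and -3.71. The dimmer Gstt2 probes, at signals of 22.6 to 34.6, were near the detection limit. In replicate 1 they deviated by 0.09 and 0.038, against -0.092 for the brightest. In replicate 4 they deviated by 0.013 and 0.209, against 0.201. Gstk1, the kappa class enzyme of mitochondria and peroxisomes, was not detected on a single array, with signals of 5.85 to 9.93 from 1 probe.

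The 3 microsomal glutathione transferases are small membrane proteins unrelated in fold to the soluble enzymes, and belong to the MAPEG family. Mgst1 protects membranes against lipid peroxidation, and Mgst2 can also join glutathione to the leukotriene precursor. Of the 4 families they had the lowest median SD (0.065, against 0.12 for Gst, 0.182 for Ugt and 0.293 for Sult), a difference that was not tested. All 3 Mgst genes are bright, with an expected SD of 0.114 at their intensity, while the dim genes Sult1c2a and Sult1c3, which set the Sult median, have expected SDs of 0.266 and 0.24. Mgst1 had signals of 13970, 12970, 15400 and 14390 and a level of 2.69 ± 0.11. Mgst2 had signals of 15290, 14490, 17680 and 17450 and a level of 2.88 ± 0.055, so that its highest replicate exceeded its lowest by 1.095-fold. Mgst3 had signals of 7473, 6828, 8602 and 8450 and a level of 1.83 ± 0.07. Each of the 3 was highest in replicate 1, by 0.08 to 0.14 above its mean.

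Among the UDP-glucuronosyltransferases, Ugt1a6 was the bright member. It encodes an enzyme that glucuronidates small planar phenols. The Ugt1a genes share a locus in which alternative first exons are joined to common later exons, so a probe in a common exon reads several of them. Where the Ugt1a probes lie was not analysed here. The brighter Ugt1a6 probe had signals of 4066, 4971, 6503 and 6365. The levels were 1.05, 1.33, 1.38 and 1.41 (1.29 ± 0.17), so replicate 1 was the lowest, opposite to Gstp1, Gsta1 and the Mgst genes. The dimmer Ugt1a6 probe, at signals of 73.1 to 107.5, deviated by -0.02 in replicate 1 and had its lowest value in replicate 3, so the low replicate was seen by 1 of 2 probes. Ugt1a9 passed in replicate 1 alone (21.9, against 11.3, 23.1 and 5.70). Its second probe was not detected on a single array, with signals of 3.733 to 4.275. Ugt2a1, known from olfactory epithelium, where it glucuronidates odorants, was detected by its single probe at signals of 84.0, 72.9, 78.6 and 78.4 (-4.81 ± 0.20). The other 11 Ugt genes were not detected on a single array, among them Ugt1a8, Ugt2a3, Ugt2b, Ugt2b1, Ugt2b10 and Ugt2b15.

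The sulphotransferases detected all belonged to the 1C subfamily. Sult1c2, whose enzyme sulphates phenols and some carcinogens, was read by 4 detected probes. The brightest had signals of 5190, 5038, 5849 and 5771 and a level of 1.31 ± 0.08. The probes did not follow each other closely. In replicate 4, 1 deviated by -0.33 and the other 3 by -0.05 to 0.09. In replicate 2 the brightest deviated by 0.037, and the others by 0.149, -0.159 and -0.175. All 4 were above their mean in replicate 1, but not all were highest there. Sult1c3 had signals of 45.7, 49.1, 73.4 and 88.2, with a level of -5.15 ± 0.30 that was lowest in replicate 1 and highest in replicate 4. Its second probe kept replicates 3 and 4 above replicates 1 and 2 (69.2 and 69.7 against 47.2 and 42.6). Sult1c2a was detected by 2 of 3 probes, and the third failed in replicate 2 (9.51). The probe that stands for Sult1c2a had signals of 26.6, 32.8, 29.1 and 44.1 (-6.08 ± 0.29). No probe of the other 10 Sult genes was well above background on any array. They include Sult1a1, Sult1b1, Sult1d1, Sult1e1, Sult2a1 and Sult2a2, which sulphate phenols, oestrogens or steroids in liver and other tissues.

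With gene starts at most 1000000 bases apart in the GRCr8 gene table, 43 members fell into 10 groups of neighbours, of which 13 were detected, and 4 of the 11 members that lie alone were detected. The largest group holds 13 genes, from Sult1e1 to Ugt2b34l1, of which Ugt2a1 alone was detected. The mu class group holds 8 genes, of which Gstm4, at one end, was detected. In the groups Gstt2 to Gstt1, Gsta3 to Gsta6 and Ugt1a9 to Ugt1a6, 1 of 3 genes was detected in each, and none of 3 from Sult2a6 to Sult2a2. More than 1 gene was detected in the Sult1c group (3 of 3), the Gstp pair (2 of 2) and the group of Gsta4, Gsta5 and Gsta2 (2 of 3). In the Sult1c and Gstp groups, 1 gene was bright and the rest were dim, and close paralogs can share probe signal, which was not tested.

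Probes bear on how firmly a member counts as absent. Of the 37 members not detected, 28 were read by 1 probe, and such a gene may still be expressed. Over the 45 member probes that were detected on no array, signals ran from 3.36 to 17.6 with a median of 4.39. Of the 17 detected members, 10 rested on 1 probe. In 6 of the other 7 all probes were detected, and Sult1c2a was the exception.

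Spread between the arrays was small. For the detected members the median SD was 0.12 on the log2 scale, against 0.151 for all detected genes, and the median ratio of highest to lowest replicate was 1.22, against 1.26. No member spanned more than 2-fold, against 232 of 8713 detected genes (2.66%). The members with the largest SD were Gsta4, Sult1c3, Sult1c2a, Gsta1 and Ugt2a1, of which Gsta1 alone is bright. The SD of Gsta1 (0.263) was over that expected at its intensity (0.114), and 6 of 17 members (35.3%) exceeded that expectation, against 46.4% of all detected genes. Without replicate 1 the median SD of the members was 0.076.

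Variation between replicates was tested for 8713 genes with limma, by comparing a gene's variance with that predicted for its intensity (F test). None of the 17 members passed an adjusted p under 0.05 (smallest 0.969, limma with Benjamini-Hochberg adjustment), against 1 gene of all tested (0.0115%). Before adjustment, Gsta1 alone of the members passed the same threshold, against 375 of all genes (4.3%). In simulated data for this comparison the test recovered 0% of genes with a 3-fold or 5-fold raised SD, 24% with 10-fold and 56% with 20-fold. Smaller differences between arrays were beyond its reach with 4 samples.

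Replicate 1 was the array on which the detected members stood highest. Relative to a gene's own mean, the median member stood at 0.127, -0.028, -0.06 and -0.013 on the 4 arrays in order, and the median of all detected genes at 0.016, -0.01, -0.014 and 0.005. In replicate 1, 13 of 17 members (76.5%) were above their mean, against 53.3% of all detected genes, and 11 members (64.7%) had their highest value there, against 34.6%. In replicate 3, 15 of 17 (88.2%) were below their mean, against 54.5% of all detected genes. The 4 members below their mean in replicate 1 were Gstt2, Ugt1a6, Sult1c2a and Sult1c3. For Gstt2 this was the brightest probe alone, since its dimmer probes were above their mean there. By family, the median in replicate 1 was 0.147 for Gst, 0.096 for Mgst, 0.007 for Ugt and -0.134 for Sult. The Sult median was highest in replicate 4 (0.311) and the Ugt median in replicate 2 (0.042). In replicate 1 the median of the 17 members was positive under each of 5 other scalings, corrections or probe choices tried (0.083 to 0.155). Under these, 13 or 14 of 17 members were above their mean. Spots of other genes near the member spots, at most 5 rows and columns away, were compared with the median of the other arrays. In replicate 1 they were higher for 13 of 17 members, and in replicate 2 for 14 of 17. Their median deviation in replicate 1 was -0.107 to 0.143 around a member, with a median of 0.048, against 0.153 for the member spots themselves. In replicate 2 these medians were 0.023 and -0.013. The part of the array area in the pattern was not tested. The 4 arrays are 1 group, so no test of this pattern was available, and members share the scaling of each array.

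**Figure D2:**
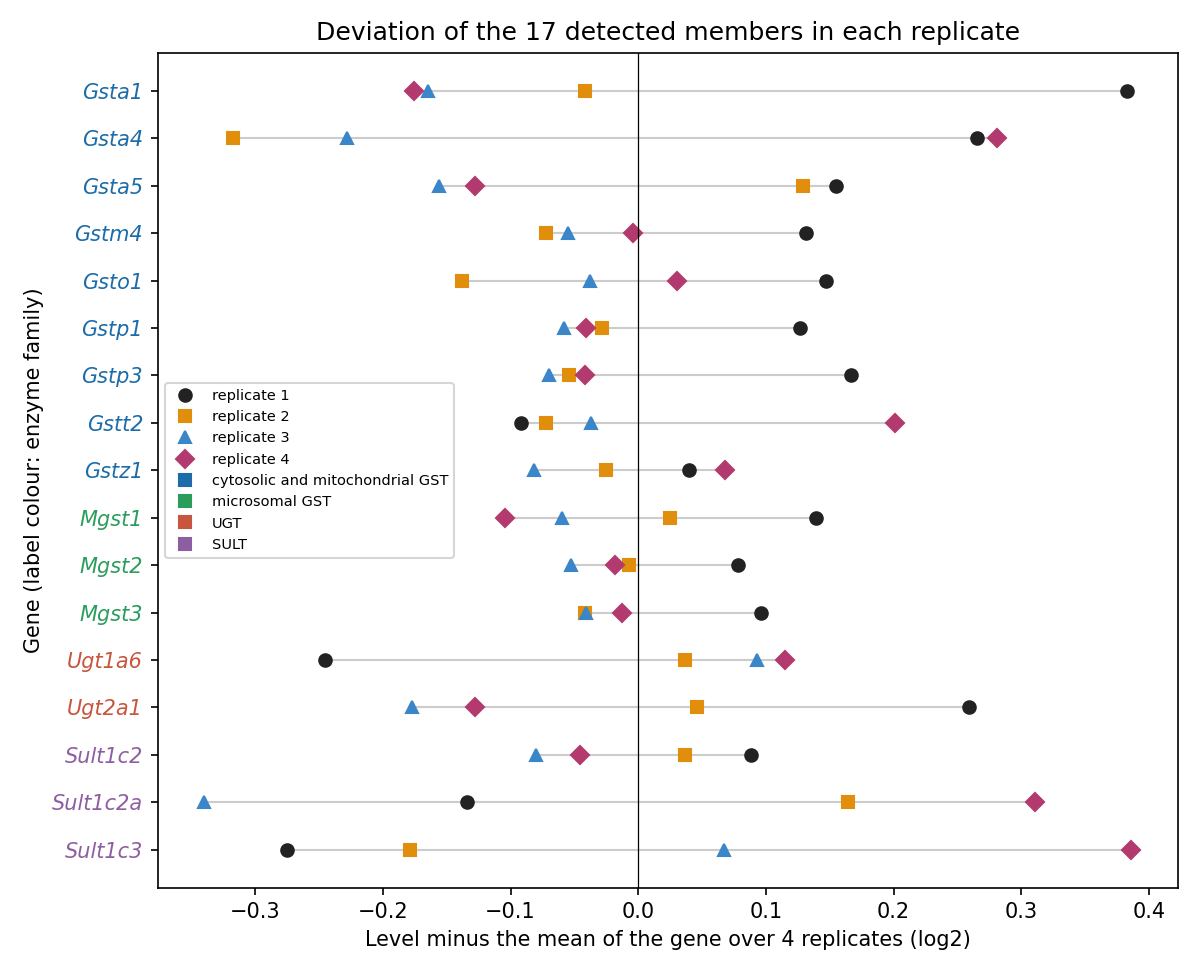
Level of each of the 17 detected members minus its own mean over the 4 replicates (log2 units, x axis), with 1 symbol per replicate and gene labels coloured by enzyme family. Replicate 1 (black circles) lies to the right for 13 genes, by up to 0.38 in Gsta1, and to the left for Ugt1a6, Gstt2, Sult1c2a and Sult1c3.

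Probes printed 10 times on each array show how precisely an array measured a member. For the Mgst2 probe the median SD between spots of an array was 0.048 and the SD between array means 0.056. For the brighter Gstp1 probe these were 0.056 and 0.085, for the dimmer Gstp1 probe 0.105 and 0.101, for Mgst3 0.076 and 0.065, and for Ugt1a6 0.106 and 0.166. The 10 Ugt1a6 spots of replicate 1 ran from 0.88 to 1.22, and no spot of replicates 2 to 4 was below 1.22. The standard error of an array mean was 0.028 to 0.037 for Ugt1a6, smaller than the SD between arrays. The Mgst3 spots of replicate 1 were the most scattered (SD 0.197, from 1.44 to 2.15). The spots of 1 array share a sample and a hybridization, so they measure the precision of the array and not of the culture.

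**Figure D3:**
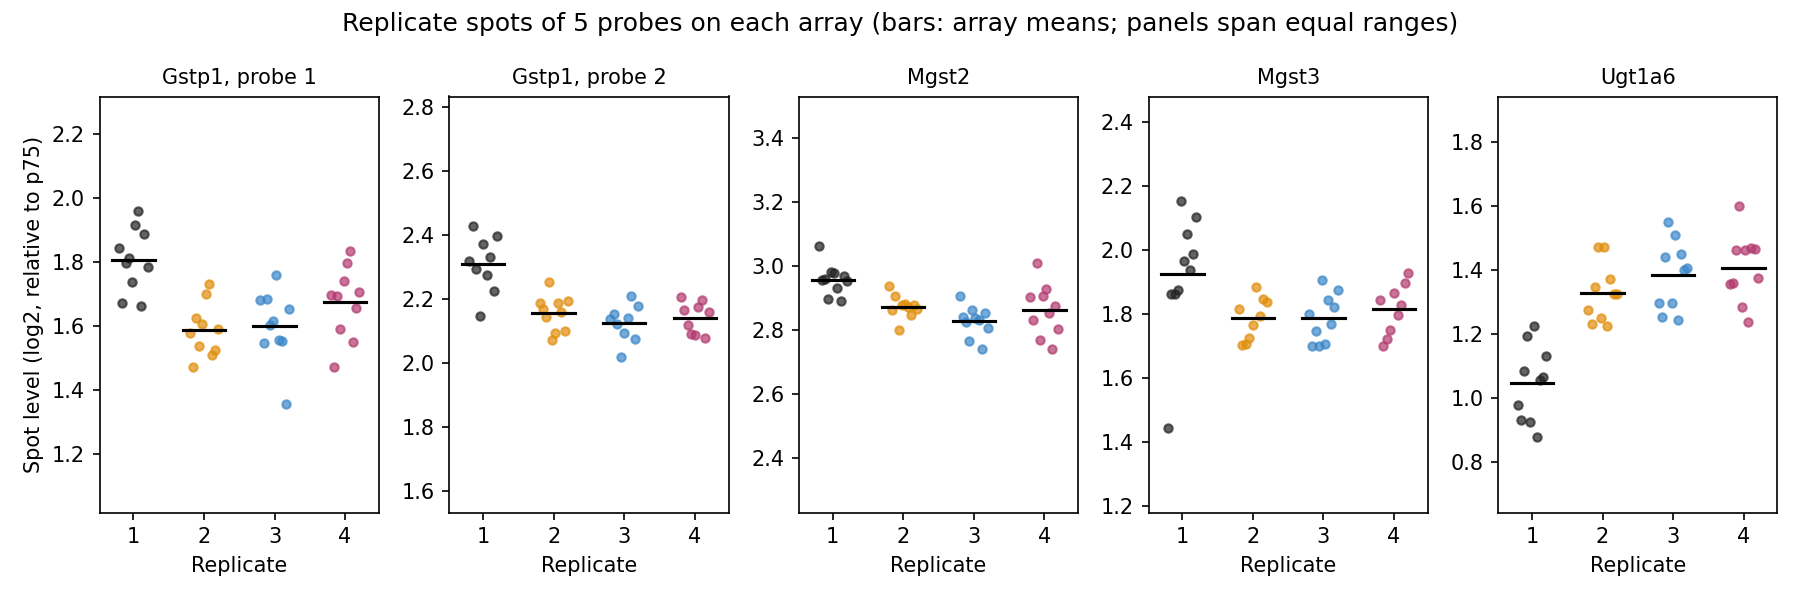
Level of single spots (log2, relative to the 75th percentile of detected probes) for the 5 member probes that are printed 10 times per array, by replicate; black bars are array means and all panels span the same range. Replicate 1 is the highest array in both Gstp1 panels, Mgst2 and Mgst3, and the lowest in Ugt1a6.

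Most of the genes that supply, export and control conjugation were detected, but 52.5% of all named genes were too. Of 9 measured genes of glutathione supply, recycling and breakdown, 6 were detected. They were Gclc, the catalytic subunit of the rate-limiting ligase (0.46 ± 0.12), Gss, Gsr, Slc7a11, the cystine importer (-1.18 ± 0.31), Slc3a2 and Chac1. Gclm, Ggt1 and Ggt5 were not well above background. All 4 genes of UDP-glucuronate supply and glucuronide removal were detected, Ugp2, Ugdh, which makes UDP-glucuronate (-2.76 ± 0.17), Slc35d1 and Gusb. Of 7 measured genes of sulphate supply and removal, 6 were detected, including Slc35b2 (1.61 ± 0.11), Slc26a2 and Bpnt1. Papss2, a synthase of the sulphate donor PAPS, was not well above background, and its paralog Papss1 was not analysed here. Among other conjugating enzymes, 5 of 9 were detected, including Nnmt, Nat1 and As3mt, a share (55.6%) close to that of all named genes.

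Of 7 exporters of conjugates, 5 were detected, including Abcc1 (-0.84 ± 0.26), Abcc2 and Abcc5 (0.70 ± 0.27), and Abcc3 and Abcg2 were not. Of 10 regulators, 8 were detected, including the NRF2 gene Nfe2l2 (0.27 ± 0.18), Keap1 (-2.83 ± 0.08) and the Maf partner gene Mafg (0.50 ± 0.19). Ahr and Nr1i3, which encode the dioxin receptor and the liver receptor CAR, were not well above background. Of 6 relatives of the transferases that the name rule leaves out, Clic1 (3.08 ± 0.14) and Clic4 were detected; Alox5ap passed on 1 array, and Hpgds, Ptges and Ltc4s on none. Lists differed in where replicate 1 stood. It was the lowest array for 5 of 5 detected exporters, 4 of 6 genes of the glutathione list and 5 of 8 regulators. Over all detected genes the share was 28.5%. The median deviations of these lists were -0.243, -0.233 and -0.217. For the regulators the median was -0.103 with the normexp background correction. In the other direction, 5 of 5 other conjugating enzymes were above their mean in replicate 1 (median 0.082), and the 2 detected relatives of the transferases had a median of 0.023. Under quantile normalization or scaling to all probes or to the median, 4 of 5 exporters were lowest there.

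**Figure D4:**
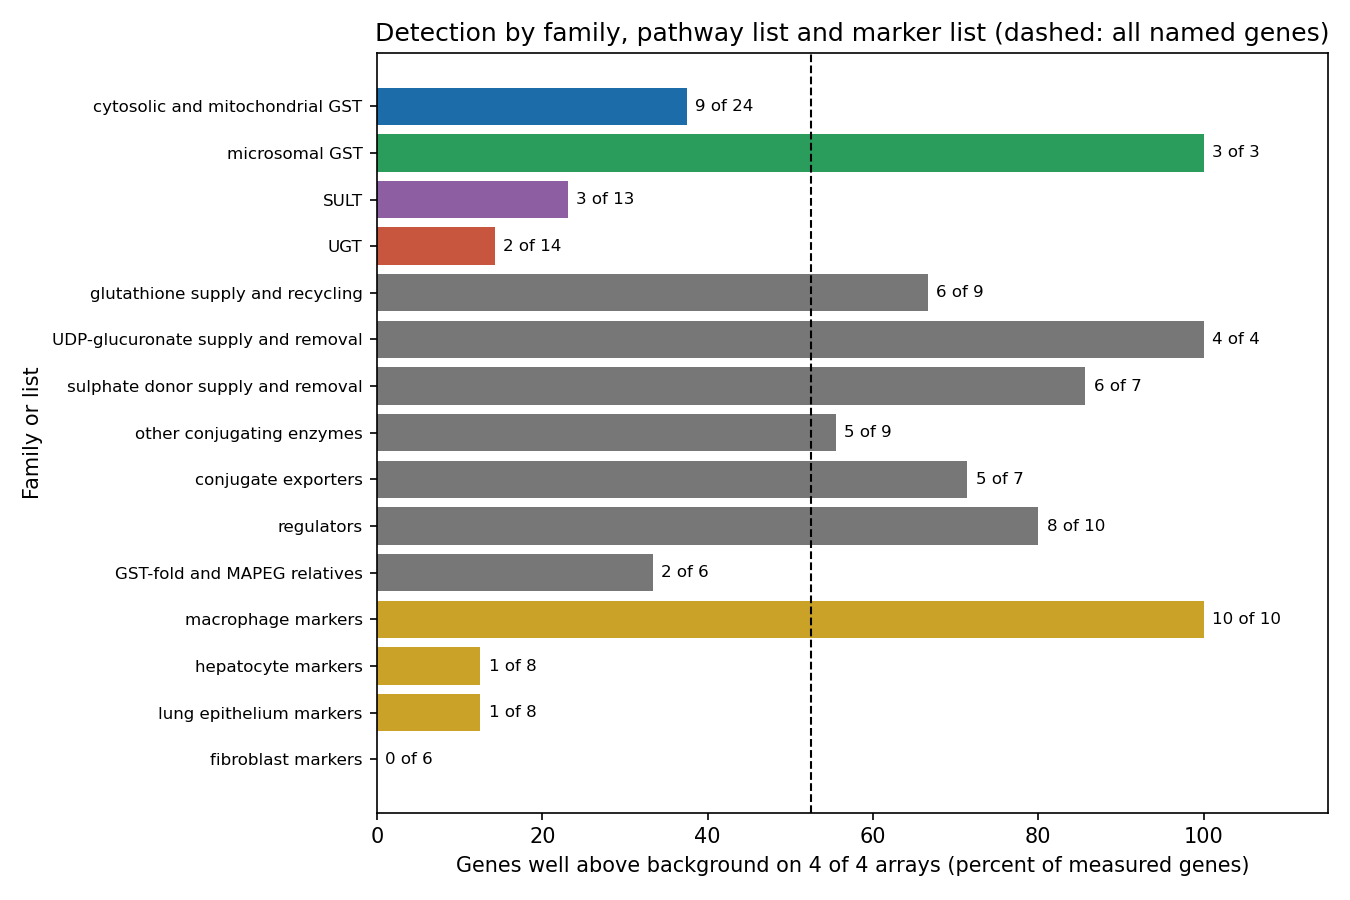
Share of measured genes that were well above background on 4 of 4 arrays (percent), with counts beside each bar, for the 4 enzyme families (coloured), 7 pathway lists (grey) and 4 cell marker lists (gold). The dashed line is the share over all named genes (52.5%), above which stand the Mgst family, 6 of the pathway lists and the macrophage markers.

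The cells carried the markers of their label. All 10 macrophage markers were detected, among them Csf1r, Cd68 and Spi1. Liver and lung epithelium are the tissues where many members are best known. Of 8 hepatocyte markers, Hnf4a alone was detected (-3.36 ± 0.14), and the defining markers Alb, Apoa1 and Ttr were not detected on a single array. Of 8 lung epithelium markers, Foxj1 alone was detected, and of 6 fibroblast markers none was on all 4 arrays, with Dcn on 1. In these bulk samples, fewer cells with a transcript and less transcript per cell cannot be told apart.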

How the data were processed

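Total RNA of 4 exposed NR8383 samples (integrity number above 7.5, 100 ng labelled with Cy3, per the labels' protocols) was hybridized to one-colour arrays. The intensity of each spot was deposited by the authors as Agilent's background-corrected processed signal from Feature Extraction 11.0.1.1, as both the file headers and the submitters' processing notes say; whether arrays were normalized to each other is not stated there. The flags, of 0 or 1 per spot, and the median spot and background intensities are as deposited.

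Control spots (4259 of 62976) and outlier-flagged spots were left out, replicate spots were averaged as log2, and no member spot was saturated. The 75th percentile of the probes detected on all arrays lay at 1970, 1980, 2493 and 2402 intensity units on the 4 arrays. The number of arrays limits the precision. A gene's level came from its brightest probe, detected ones first. Accessions were matched without versions to RefSeq tables of GRCr8, which is not the build of the file headers, so coordinates are given only for promoter sequences. The variance test used R 4.3.3 with limma 3.58.1 and was tested on simulated data of 8713 genes. Python 3.11.15 with matplotlib 3.10.9 drew the figures.

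The name rule that picks the members, and the lists, were set with earlier results of these data known. Named are all detected members, those detected on 1 to 3 arrays, those whose probes disagree, the 5 with the largest SD and, of the others, up to 6 per family in alphabetical order; neighbouring genes and genes with the motif were named for these properties. Of the lists, detected genes (the first 3 in longer lists) and genes not detected, where these were 5 or fewer, are named in part. Alternatives were other detection flags and rules, scalings, normexp, probe choices, filters, variance models and dropping 1 replicate at a time. For normexp, the input was the median spot signal.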

Additional observations from a re-analysis of the deposited data

Results flagged for a closer look

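In 2 of 17 detected members, the gap between 1 replicate and the nearest other, divided by the whole range, was above Dixon's critical value of 0.829 for 4 samples, which chance gives in about 1 of 20 sets. Both are pi class genes and both stood apart in replicate 1. Part of the Gstp3 signal could come from Gstp1 transcripts, so the 2 may not be separate cases. The share over all detected genes was not computed. Gstp1 was higher there (ratio 0.8375), at 2.31 against 2.16, 2.13 and 2.14. This ratio is of the brighter Gstp1 probe alone. The dimmer probe was also highest in replicate 1, at 1.81, but its other values lay less close together (1.59, 1.60 and 1.67). Gstp3 was higher there (ratio 0.8796), at -5.01 against -5.23, -5.25 and -5.22. Spots of other genes that lie near these, at most 5 rows and columns away, were also higher on that array, with a median deviation from the other arrays of 0.06 around the Gstp1 spots and 0.11 around the Gstp3 spot, against 0.14 and 0.22 for the spots themselves. The part of the array area in these values was not tested.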

How the results depend on the processing

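The count of 17 detected members was 16 if all probes of a gene had to be detected, 20 with the weaker flag or with at least 1 of 4 arrays, and 17 with at least 3 arrays, with flagged spots kept and without any 1 replicate. No member passed the variance test (limma) under any alternative run for it, including each left-out replicate; over all genes the count was 1 and ran from 0 to 9. The median SD ran from 0.076 to 0.142 when 1 replicate was left out, with the lowest value without replicate 1, and from 0.107 to 0.131 under the other alternatives. The median deviation ran from 0.105 to 0.106 in replicate 1, from -0.05 to 0.004 in replicate 2, from -0.084 to -0.03 in replicate 3 and from -0.032 to 0.019 in replicate 4 when 1 other replicate was left out. Scaling to all probes or to the median moved the level of all 17 members by a shift common to them. Normexp, which also used the median spot signal and an added offset of 50, moved 9 levels by more than 1 SD, most of them of dim members (Gsta5 from -6.40 to -4.49), and the mean over probes moved 4, among them Ugt1a6 (from 1.29 to -1.72). No paired analysis was possible because there is 1 group.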
